A study of Mus musculus with 2 samples.

Results

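Mrc1 F13a1 nuclei were nuclei of mouse aorta, taken from its ascending part and arch, selected by their UMIs of the macrophage genes F13a1, Mrc1 or Cd163. A nucleus was counted among them when it had at least 300 detected genes and at least 4 UMIs of F13a1, Mrc1 and Cd163 together. That sum also had to exceed the sum of Lyz2, Mmp12 and Cybb, the sum of the smooth muscle genes Myh11, Acta2 and Lmod1, and the sum of the fibroblast genes Pdgfra and Dcn. These conditions gave 461 of 18863 Female nuclei and 675 of 20653 Male nuclei, 1136 of 39516 in all. Because the nuclei were chosen by the UMIs of these genes, their levels and every contrast between the nuclei so chosen and the rest are descriptions of the data and carry no test.

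The mice carried Wnt1-Cre and the Rosa26-mTmG reporter in both sexes. Wnt1-Cre acts in the neural crest lineage, and the reporter makes membrane tdTomato until Cre recombines it, after which it makes membrane GFP. Tissue of several mice was pooled for each sex, so there was 1 Female library and 1 Male library, and no spread between animals could be computed. Each pool was divided for technical replication, and the barcodes do not show the division. No age of the mice is given in the labels. Intervals below are at 95% and cover counting error only.

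Macrophages of the arterial wall take up debris, iron and lipoproteins, present antigen and release growth factors. In many mouse tissues a population that settles early and maintains itself locally carries Lyve1, Folr2, Timd4 and Mrc1, while a population renewed from blood monocytes carries Ccr2 and more major histocompatibility complex (MHC) class II. F13a1 encodes the A subunit of coagulation factor XIII, Mrc1 the mannose receptor CD206, and Cd163 the receptor for haemoglobin bound to haptoglobin. Residence and origin were not measured here, and the nuclei are therefore called by their genes.

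The DNA upstream of the selecting genes gives the letters at which these loci begin. The RefSeq windows below run from 250 bases before to 50 bases after an annotated transcript start in build GRCm38.p6, 5′ to 3′ on the strand of the gene. Capitals mark GAGGAA or its reverse complement TTCCTC, the core of the PU-box to which the macrophage factor PU.1 (Spi1) binds. The first is for F13a1, minus strand, chr13:37050195-37050494. The second is for Mrc1, plus strand, chr2:14229164-14229463. Then follow Cd163, plus strand, chr6:124304401-124304700, and Stab1, minus strand, chr14:31168592-31168891, a scavenger receptor gene that was not used in the selection.
F13a1: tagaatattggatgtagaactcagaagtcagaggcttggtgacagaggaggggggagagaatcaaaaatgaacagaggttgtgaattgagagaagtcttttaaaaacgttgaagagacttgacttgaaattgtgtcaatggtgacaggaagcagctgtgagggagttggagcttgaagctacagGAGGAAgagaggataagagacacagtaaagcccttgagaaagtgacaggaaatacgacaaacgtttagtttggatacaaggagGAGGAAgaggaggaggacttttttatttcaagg
Mrc1: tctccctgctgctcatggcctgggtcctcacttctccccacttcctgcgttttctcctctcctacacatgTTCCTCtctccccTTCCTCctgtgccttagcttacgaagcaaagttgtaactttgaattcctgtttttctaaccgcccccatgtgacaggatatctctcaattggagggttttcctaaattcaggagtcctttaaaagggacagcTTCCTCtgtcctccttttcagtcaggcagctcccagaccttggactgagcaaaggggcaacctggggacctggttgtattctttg
Cd163: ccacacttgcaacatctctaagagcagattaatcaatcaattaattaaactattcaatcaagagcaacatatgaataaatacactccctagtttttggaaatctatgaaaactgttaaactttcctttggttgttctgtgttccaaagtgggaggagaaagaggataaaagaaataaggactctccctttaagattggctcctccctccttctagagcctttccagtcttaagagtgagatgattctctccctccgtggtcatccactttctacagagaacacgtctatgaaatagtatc
Stab1: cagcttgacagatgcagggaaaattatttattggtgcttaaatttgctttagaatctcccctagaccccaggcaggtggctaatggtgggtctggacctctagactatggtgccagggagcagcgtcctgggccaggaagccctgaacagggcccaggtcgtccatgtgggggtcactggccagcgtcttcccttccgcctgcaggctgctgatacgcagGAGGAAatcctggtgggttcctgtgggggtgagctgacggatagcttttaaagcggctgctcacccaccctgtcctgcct
The core occurred 2 times in the F13a1 window, 3 times in the Mrc1 window, 1 time in the Stab1 window and 0 times in the Cd163 window. F13a1 has another annotated start, whose window at chr13:37049164-37049463, not printed, held it 1 time. Windows of other genes outside the selection, also not printed, held the core 0 times for Folr2 and Cd209f and 1 time each for Rbpj. On either strand the core was present in 9289 of 32851 RefSeq windows of this length (28.3%). The motif TGCTGAC, part of the site that Maf factors bind, was present in 4.67% of windows and in none of the 4 printed. A match is a description of the letters and not a binding site, and the absence of one says only that the letters are not in this window.

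The Mrc1 F13a1 nuclei made up 2.44% of Female nuclei (2.23% to 2.67%) and 3.27% of Male nuclei (3.03% to 3.52%). The Female share was lower by 0.824 percentage points, with a counting interval of the difference from -1.15 to -0.496 points. They were set against the nuclei with at least 3 UMIs of Lyz2, Mmp12 and Cybb and at least as many of these as of the selecting genes, which numbered 106 among Female nuclei (0.562%) and 124 among Male nuclei (0.600%). The Mrc1 F13a1 nuclei therefore formed 81.3% (77.8% to 84.4%) of both sets together among Female nuclei and 84.5% (81.8% to 86.9%) among Male ones. No smooth muscle or fibroblast condition was set on the Lyz2 Mmp12 Cybb nuclei. That set also held UMIs of airway, neutrophil and other cell type genes, given below, so these are not shares of macrophages. With 1 pool per sex, the difference in share cannot be told apart from differences between the pools.

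The libraries held 79294181 Female and 77989549 Male UMIs. A Mrc1 F13a1 nucleus had a median of 2501 UMIs and 1378 genes among Female and of 2777 UMIs and 1506 genes among Male nuclei. The median was 3687 and 3755.5 UMIs in Lyz2 Mmp12 Cybb nuclei, and 3572 and 3113 UMIs in all other nuclei, Female and Male. Scrublet called doublets among 11.3% of Female and 13.9% of Male Mrc1 F13a1 nuclei, against 4.83% and 7.05% of all other nuclei. The called nuclei were kept, and the results without them are given at the end. Both libraries shared 4287 barcode sequences, among them 84 of the Female and 136 of the Male Mrc1 F13a1 nuclei, but 1 barcode belonged to this set in both libraries.

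The sum of F13a1, Mrc1 and Cd163 had a median of 26 UMIs in Female and 28 UMIs in Male Mrc1 F13a1 nuclei, well above the threshold of 4. All 3 genes were found in 60.5% of the Female and 63.7% of the Male nuclei, and no UMI of Lyz2, Mmp12 or Cybb in 26.5% and 24.0%. Of the nuclei with 4 or more UMIs of the selecting genes, 53 Female and 48 Male nuclei were set aside because smooth muscle UMIs were as many or more. At the threshold itself stood 10 Female and 14 Male nuclei with a sum of 4, and just outside it 19 and 32 with a sum of 3. Lyve1 was at 129 Female and 146 Male CPM (counts scaled to the summed UMIs of the set) in the nuclei with a sum of 4, and at 27.5 and 15.9 CPM in those with a sum of 3. Csf1r lay the other way, at 215 and 72.9 CPM with a sum of 4 against 412 and 319 CPM with a sum of 3. Stab1 was at 516 and 1532 CPM against 549 and 446 CPM, and C1qa at 344 and 219 CPM against 329 and 159 CPM. These sets of few nuclei did not part in the same way in all markers.

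F13a1 was at 7583 Female and 7495 Male CPM in Mrc1 F13a1 nuclei, against 187 and 85.5 CPM in Lyz2 Mmp12 Cybb nuclei and 12.9 and 15.4 CPM in all other nuclei. Mrc1 was at 2403 and 2388 CPM, against 119 and 173 CPM and then 2.91 and 5.82 CPM in those sets. Cd163 was at 775 and 1094 CPM, against 8.51 and 5.24 CPM in Lyz2 Mmp12 Cybb nuclei. A UMI of F13a1 was found in 98.5% of Mrc1 F13a1 nuclei of either library, and in 3.36% of Female and 3.87% of Male smooth muscle nuclei, in which free RNA is the background. These values show what the selection did and nothing more.

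**Figure D1:**
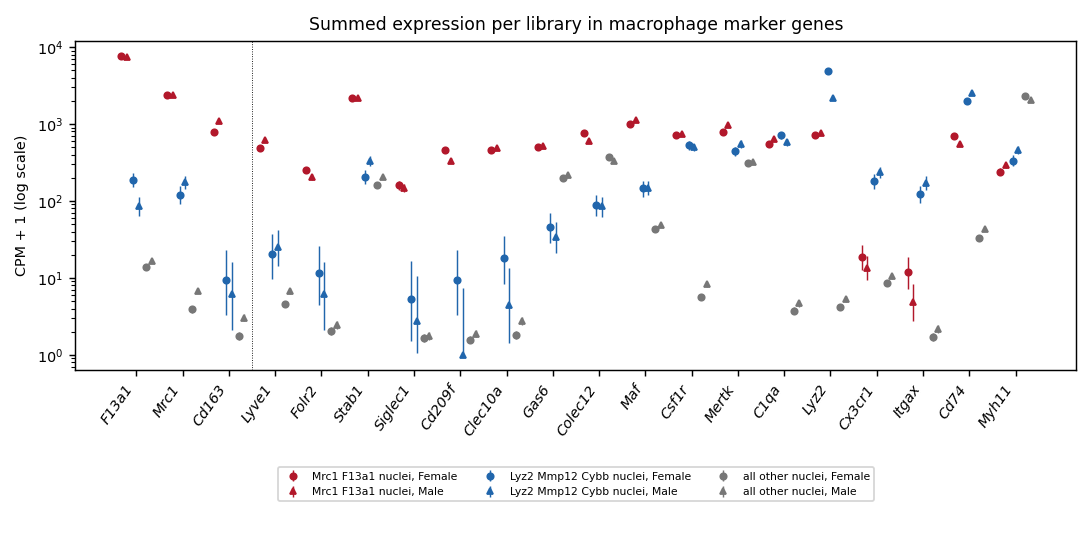
Summed expression of marker genes in CPM + 1 on a log axis, for Mrc1 F13a1, Lyz2 Mmp12 Cybb and all other nuclei; circles are the Female and triangles the Male library, bars are exact Poisson 95% intervals, and the dotted line parts the selecting genes from the rest. Lyve1, Folr2, Siglec1, Cd209f and Clec10a lay far higher in Mrc1 F13a1 nuclei than in Lyz2 Mmp12 Cybb nuclei, while Csf1r, Mertk and C1qa lay close together in both sets.

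The label of a macrophage was set against genes that were not used in the selection. These were listed with earlier results of these data known, so their levels describe the nuclei and are no separate test. Csf1r, the receptor for macrophage colony-stimulating factor, was at 726 Female and 741 Male CPM in Mrc1 F13a1 nuclei and at 4.58 and 7.24 CPM in all other nuclei. Of the 20 genes of the macrophage identity list, 19 were abundant enough to compare with all other nuclei (at least 50 UMIs in the sets compared and 20 CPM in 1 of them). All 19 were at least 2-fold higher in both libraries, with a median log2 ratio of 4.29. Over all 8718 genes compared, 13.2% were higher and 17.6% were lower by this measure, and the median was -0.06. Ratios are log2 of CPM + 5, which understates the difference for low genes.

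The complement genes C1qa, C1qb and C1qc, whose products start the classical pathway and tag dying cells, were at 503 to 709 CPM in Mrc1 F13a1 nuclei and at no more than 4.34 CPM in all other nuclei. Adgre1, which encodes the antigen F4/80, was at 547 Female and 499 Male CPM, against 1.93 and 2.24 CPM. The genes furthest above all other nuclei also included Aoah, a hydrolase that detoxifies lipopolysaccharide, at 568 and 645 CPM against 1.07 and 2.49 CPM. Ednrb, an endothelin receptor gene, was at 474 and 496 CPM against 0.814 and 1.98 CPM, and Kcnk13, a potassium channel gene, at 434 and 500 CPM against 1.44 and 2.61 CPM. Retnla, which encodes an alternative activation marker, was at 572 and 501 CPM against 1.81 and 2.09 CPM. In both libraries each of these genes was many times its level in all other nuclei, which leave out the Lyz2 Mmp12 Cybb nuclei. In those, C1qa was at 711 Female and 581 Male CPM and Adgre1 at 653 and 513 CPM, so C1qa and Adgre1 do not part the Mrc1 F13a1 nuclei from that set. Aoah and Retnla were scarcer there. Aoah was found in 19 of 106 Female and 18 of 124 Male Lyz2 Mmp12 Cybb nuclei, against 265 of 461 and 451 of 675 Mrc1 F13a1 nuclei. Retnla was found in 7 Female and 7 Male Lyz2 Mmp12 Cybb nuclei, against 228 and 259 Mrc1 F13a1 nuclei.

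Rbpj, which encodes the DNA-binding factor of Notch signalling, lies on chromosome 5 at 53466152 to 53657362 on the plus strand. It was at 10468 Female and 9867 Male CPM in Mrc1 F13a1 nuclei, against 632 and 674 CPM in Lyz2 Mmp12 Cybb nuclei and 149 and 143 CPM in all other nuclei. The ratio to Lyz2 Mmp12 Cybb nuclei was 15.4 (14.3 to 16.7, both libraries summed). A UMI of Rbpj was found in 97.0% of Female and 96.9% of Male Mrc1 F13a1 nuclei, against 70.8% and 63.7% of Lyz2 Mmp12 Cybb nuclei, and in 35.8% and 28.9% of smooth muscle nuclei. Both libraries thus gave nearly the same level in each set.

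Against the Lyz2 Mmp12 Cybb nuclei, the Mrc1 F13a1 nuclei had 283 of 8384 genes (3.38%) at least 2-fold higher in both libraries, and 461 (5.5%) at least 2-fold lower. The median log2 ratio over all 8384 genes was -0.08. The selecting genes were left out of these counts. Leaving out either library and calling genes from the other alone moved the counts to between 462 and 507 higher and between 503 and 644 lower. With the sum of Lyz2, Mmp12 and Cybb also required to exceed the smooth muscle and fibroblast sums, 318 genes were higher and 455 lower. Of these, 259 and 408 were among those called before.

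Of the 30 genes of the resident macrophage list, 29 could be compared, and 23 were at least 2-fold higher in Mrc1 F13a1 nuclei in both libraries, with 0 lower and a median log2 ratio of 2.29. With the 2 genes that had no UMI in the Lyz2 Mmp12 Cybb nuclei set to their bound, the median was also 2.29. Lyve1, the hyaluronan receptor of lymphatic endothelium and perivascular macrophages, was at 492 Female and 624 Male CPM, against 19.1 and 24.4 CPM in Lyz2 Mmp12 Cybb nuclei, a ratio of 26.0 (17.3 to 41.0). Folr2, the folate receptor beta gene, was at 251 and 202 CPM against 10.6 and 5.24 CPM. Siglec1, which encodes the sialic acid receptor CD169, was at 159 and 147 CPM against 4.25 and 1.75 CPM. Lyve1 was found in 51.4% of Female and 59.6% of Male Mrc1 F13a1 nuclei and Folr2 in 43.0% and 39.0%, where smooth muscle nuclei gave at most 1.64% and 0.509%.

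The list holds several lectin genes. Cd209f was at 459 Female and 332 Male CPM, against 8.51 and 0 CPM in Lyz2 Mmp12 Cybb nuclei. Cd209g was at 307 and 207 CPM in Mrc1 F13a1 nuclei and had no UMI in Lyz2 Mmp12 Cybb nuclei of either library, which makes it at least 85.4-fold higher against a floor of 3 UMIs over that set. Cd209d was at 85.9 and 70.4 CPM against 2.13 and 1.75 CPM, and the galactose-binding lectin gene Clec10a at 458 and 486 CPM against 17.0 and 3.49 CPM. The Cd209 genes are close copies of each other, so the authors' counting could have split reads between them and their separate levels are uncertain.

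Stab1 was at 2156 Female and 2163 Male CPM, against 204 and 330 CPM in Lyz2 Mmp12 Cybb nuclei. Colec12, another scavenger receptor gene, was at 757 and 608 CPM against 87.2 and 83.8 CPM, and the endocytic adaptor gene Dab2 at 1801 and 1204 CPM against 355 and 312 CPM. The transcription factor gene Maf was at 1011 and 1119 CPM against 145 and 147 CPM. Timd4, which encodes a phosphatidylserine receptor for dying cells, was at 283 and 182 CPM against 111 and 26.2 CPM. Genes of the list that were not called included Cbr2, Pf4, Fcna, Vsig4 and Hpgd. Fcna, a ficolin gene, was at 260 and 447 CPM against 236 and 62.8 CPM, so the Female sets lay close together and the Male sets did not. Pf4, which encodes platelet factor 4, was at 145 and 132 CPM against 343 and 195 CPM.

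Beyond the resident macrophage list, Plekhg5 was at 1329 Female and 1446 Male CPM in Mrc1 F13a1 nuclei and 38.3 and 36.7 CPM in Lyz2 Mmp12 Cybb nuclei. C6, a component of the terminal complement complex, was at 62.0 and 139 CPM with no UMI in the other set, at least 37.8-fold higher. Gfra2, a coreceptor for neurturin, was at 137 and 107 CPM against 6.38 and 5.24 CPM. Tfrc, the transferrin receptor gene, was at 201 and 126 CPM against 12.8 and 5.24 CPM. Each of these genes was higher in both libraries than in either library of the other set.

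**Figure D2:**
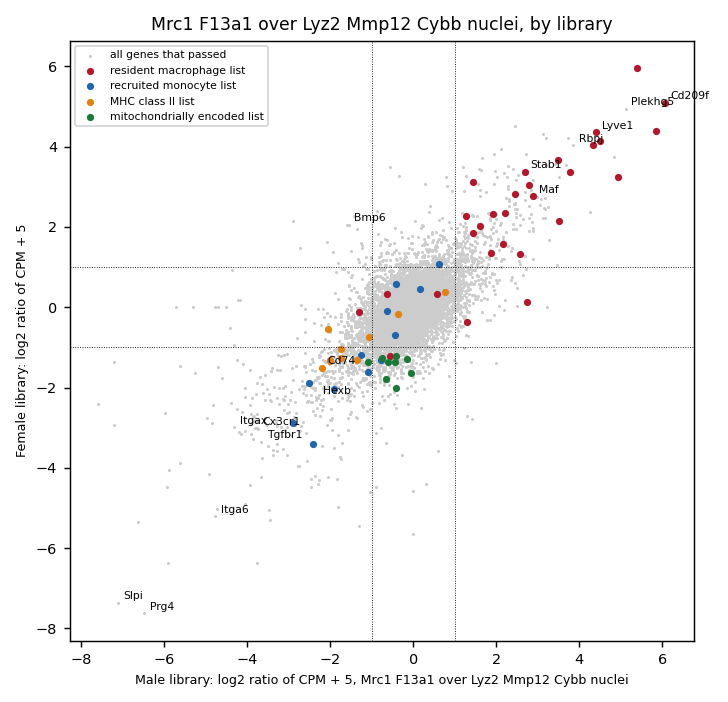
Log2 ratio of CPM + 5 of Mrc1 F13a1 over Lyz2 Mmp12 Cybb nuclei for each gene compared, Male library on the x axis and Female library on the y axis, with dotted lines at a 2-fold difference and colours for 4 gene lists. Genes of the resident macrophage list lie mostly at the upper right, those of the MHC class II and recruited monocyte lists mostly at the lower left, and Bmp6 lies above the line in the Female and below it in the Male library.

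Macrophage identity genes as a whole did not part the sets in the same way. All 20 could be compared, 0 were higher, and 4 were lower in both libraries, with a median log2 ratio of -0.33. The 4 were Cx3cr1, Cd14, Tyrobp and Ctss. Cx3cr1, the fractalkine receptor gene, was at 17.7 Female and 12.6 Male CPM, against 179 and 236 CPM in Lyz2 Mmp12 Cybb nuclei. Spi1, which encodes PU.1, was at 281 and 270 CPM against 270 and 290 CPM, and Mertk, a receptor for dying cells, at 791 and 983 CPM against 438 and 550 CPM. C1qa was at 551 and 640 CPM against 711 and 581 CPM. Itgam, which encodes CD11b, was not called, at 67.5 and 91.2 CPM against 330 and 157 CPM.

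Genes of the MHC class II list, which also holds Cd80, Cd86 and the protease gene Ctss, were often lower in the Mrc1 F13a1 nuclei. Of 14 listed genes 10 could be compared, 6 (Ctss among them) were at least 2-fold lower in both libraries and 0 higher, with a median log2 ratio of -1.40. Cd74, the invariant chain gene, was at 688 Female and 544 Male CPM, against 1976 and 2506 CPM in Lyz2 Mmp12 Cybb nuclei, a ratio of 0.265 (0.250 to 0.280). H2-Aa was at 382 and 295 CPM against 919 and 991 CPM, and H2-Ab1 at 381 and 316 CPM against 970 and 1272 CPM. Against all other nuclei the same genes were high, with 10 of 10 called higher and a median log2 ratio of 3.82. Cd74 was found in 50.5% of Female and 45.6% of Male Mrc1 F13a1 nuclei, against 51.9% and 69.4% of Lyz2 Mmp12 Cybb nuclei and 2.53% and 3.29% of smooth muscle nuclei. The Lyz2 Mmp12 Cybb nuclei also held the B cell gene Cd79a, in 8 Female and 4 Male nuclei, and Clec9a, of dendritic cells, in 8 and 10 nuclei. The part of such nuclei in the difference was not tested.

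Genes of recruited monocytes followed the same direction, 6 of 12 being lower and 0 higher, with a median log2 ratio of -1.11. Fn1, the fibronectin gene, was at 219 Female and 249 Male CPM, against 2385 and 1346 CPM in Lyz2 Mmp12 Cybb nuclei. Cd44, a hyaluronan receptor gene, was at 123 and 105 CPM against 523 and 410 CPM, and Thbs1, the thrombospondin gene, at 25.2 and 17.8 CPM against 219 and 164 CPM. Ccr2, the receptor that monocytes follow out of the marrow, was not among those called, at 62.7 and 84.7 CPM against 44.7 and 75 CPM. Ly6c2 and Chil3, which mark monocytes, had no UMI in the Female Mrc1 F13a1 nuclei and 0.434 CPM each in the Male ones.

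The lipid-associated macrophage list gave 1 gene higher and 5 lower of 16, with a median log2 ratio of -0.38. Itgax, which encodes CD11c, was at 10.9 Female and 3.91 Male CPM, against 121 and 171 CPM in Lyz2 Mmp12 Cybb nuclei. The cholesterol exporter genes parted: Abca1 was at 425 and 432 CPM against 206 and 208 CPM, while Abcg1 was at 30.7 and 36.9 CPM against 102 and 124 CPM. Spp1 had no UMI in the Mrc1 F13a1 nuclei, and Gpnmb was at 2.04 and 1.74 CPM. Apoe was at 1606 and 1635 CPM against 2947 and 1616 CPM, so that the Female sets differed and the Male sets lay close together.

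Among genes for the uptake of dying cells, 4 of 18 were higher and 4 lower, with a median log2 ratio of -0.12. Gas6, the bridging ligand of the receptors Mertk and Axl, was at 509 Female and 521 Male CPM, against 44.7 and 33.2 CPM in Lyz2 Mmp12 Cybb nuclei. Its receptor gene Axl was at 55.9 and 66.4 CPM against 296 and 354 CPM, and the integrin gene Itgav at 70.9 and 74.3 CPM against 317 and 349 CPM. The ligand was thus higher and Axl lower in the same nuclei. Gas6 overlaps Tmem255b, and no source used here says whether counting used the strand.

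Growth factor genes gave 6 higher and 3 lower of 18, with a median log2 ratio of 0.24. Igf1, the insulin-like growth factor gene, was at 326 Female and 270 Male CPM, against 63.8 and 108 CPM in Lyz2 Mmp12 Cybb nuclei. The platelet-derived growth factor genes parted, Pdgfc being at 281 and 400 CPM against 85.1 and 36.7 CPM and Pdgfb at 30.7 and 22.1 CPM against 153 and 166 CPM. The semaphorin and growth factor coreceptor gene Nrp1 was at 953 and 1055 CPM against 272 and 325 CPM, and Nrp2 at 368 and 328 CPM against 63.8 and 54.1 CPM. Plxnd1, a semaphorin receptor gene, was at 232 and 198 CPM against 63.8 and 82.0 CPM. In the list of axon and adhesion receptors 5 of 20 were higher and 7 lower, and those lower included Alcam at 291 and 209 CPM against 1176 and 1166 CPM and Itga6 at 13.6 and 8.69 CPM against 683 and 367 CPM.

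Transcription factor genes gave 5 higher and 3 lower of 36, with a median log2 ratio of 0.41. Beside Rbpj and Maf, those higher were Irf4, Tfec and Nfatc2, the last at 391 Female and 451 Male CPM against 93.6 and 115 CPM in Lyz2 Mmp12 Cybb nuclei. Runx3 was at 8.18 and 3.04 CPM against 89.4 and 110 CPM, and Irf8, which directs monocyte and dendritic cell development, at 58.6 and 80.3 CPM against 128 and 180 CPM. Of 22 cytokine receptor genes, 0 were higher and 2 lower. Tgfbr1, which encodes a receptor for transforming growth factor beta, was at 82.5 and 92.9 CPM against 891 and 1234 CPM, a ratio of 0.0823 (0.0726 to 0.0931).

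Chemokine genes gave 3 higher and 3 lower of 15. Ccl6 was at 299 Female and 580 Male CPM, against 132 and 94.2 CPM in Lyz2 Mmp12 Cybb nuclei, and Ccl24, which attracts eosinophils, at 105 and 60.8 CPM against 25.5 and 19.2 CPM. Ccl8, a ligand of several chemokine receptors, was at 17.0 and 52.5 CPM with no UMI in the other set, at least 13.5-fold higher. Cxcl16 was lower, at 17.7 and 17.8 CPM against 164 and 335 CPM. The complement list gave 1 higher and 1 lower of 15.

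Iron genes gave 3 higher and 0 lower of 17, with a median log2 ratio of 0.45: Tfrc, Hmox1 and Steap3. Hmox1, which encodes the haem-degrading enzyme haem oxygenase 1, was at 23.2 Female and 57.3 Male CPM, against 2.13 and 3.49 CPM in Lyz2 Mmp12 Cybb nuclei. Steap3, an iron reductase gene, was at 101 and 98.1 CPM against 42.5 and 33.2 CPM. In the coagulation list, which leaves out F13a1, 0 of 13 were higher and 4 lower, among them the factor genes F5 at 1.36 and 5.21 CPM against 245 and 106 CPM and F10 at 4.09 and 8.25 CPM against 172 and 68.1 CPM. The lysosome list gave 0 higher and 2 lower of 21, and the interferon list 1 higher and 0 lower of 12. The calcium channel gene Trpv4 was at 153 and 201 CPM against 19.1 and 38.4 CPM, and the purine receptor gene P2rx7 at 377 and 419 CPM against 185 and 141 CPM. Mmp9, a gelatinase gene, was at 129 and 77.7 CPM against 10.6 and 24.4 CPM.

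**Figure D3:**
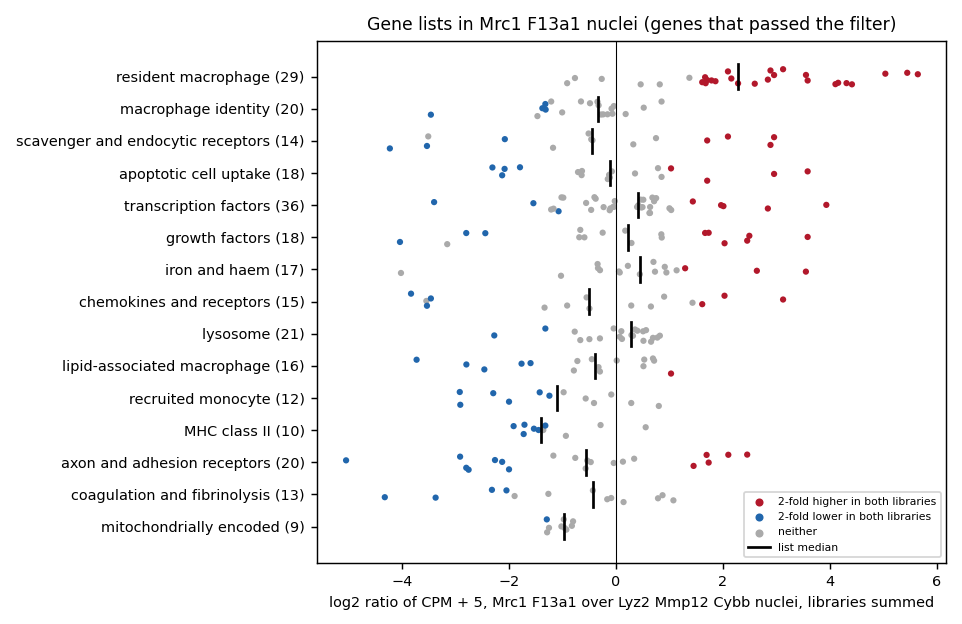
Log2 ratio of CPM + 5 of Mrc1 F13a1 over Lyz2 Mmp12 Cybb nuclei, both libraries summed, with 1 point for each gene compared, the number of genes in brackets and a black bar at the median of the list. The resident macrophage list has its median at 2.29, and the MHC class II list, at -1.40, lies furthest to the left of those drawn.

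The genes furthest below the Lyz2 Mmp12 Cybb nuclei rested in part on few nuclei of that set. Slpi, a protease inhibitor gene, was at 0.681 Female and 0.434 Male CPM in Mrc1 F13a1 nuclei, against 932 and 747 CPM, and its UMIs came from 26 and 16 nuclei of the other set. Prg4, the lubricin gene, was at 2.73 and 0.434 CPM against 1521 and 478 CPM, and Alox15, a lipoxygenase gene, at 2.73 and 0 CPM against 640 and 297 CPM. Ltf was found in 3 Female and 8 Male nuclei of the other set. The neutrophil genes S100a8 and S100a9 were at 162 and 302 CPM in the Male Lyz2 Mmp12 Cybb nuclei, where they came from 6 and 5 nuclei. The airway genes Bpifa1 and Scgb1a1 were at 470 and 423 CPM in the Female set, from 3 nuclei each, and at 1126 and 1447 CPM in the Male set, from 7 and 9 nuclei. Mesothelial markers summed to 57.2 Female and 14.3 Male CPM in Mrc1 F13a1 nuclei and to 153 and 304 CPM in Lyz2 Mmp12 Cybb nuclei. The part of other cell types within that set in these differences was not tested.

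Markers of smooth muscle, fibroblasts and endothelium were lower in the Mrc1 F13a1 nuclei than in all other nuclei. The selection itself set limits on smooth muscle and fibroblast genes, so low values of those markers are no separate check. The summed smooth muscle markers were at 231 Female and 338 Male CPM, against 1807 and 1793 CPM in all other nuclei. Fibroblast markers summed to 344 and 276 CPM against 1260 and 1200 CPM, and endothelial markers to 654 and 697 CPM against 1924 and 2848 CPM. T and NK markers summed to 19.8 and 43.4 CPM against 20.9 and 63.7 CPM, with Themis at 12.3 and 17.8 CPM, Skap1 at 6.13 and 25.2 CPM and Nkg7 at 0. Cd79a and Pax5, which define B cells, had no UMI. Their part in the results was not tested. Bank1, listed as a B cell gene, was at 850 and 568 CPM and was found in 336 Female and 399 Male Mrc1 F13a1 nuclei, 72.9% and 59.1%, against 0.460% and 0.608% of smooth muscle nuclei. Csf3r and Zbtb46, listed for neutrophils and dendritic cells, were at 119 and 78.6 CPM and at 86.5 and 83.4 CPM, while Retnlg and S100a9 had no UMI in the Female nuclei and Xcr1 none in either library.

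The nuclei were not uniform in Lyve1. A Lyve1 UMI was found in 237 Female nuclei, 51.4% (46.7% to 56.1%), and in 402 Male nuclei, 59.6% (55.7% to 63.3%). Nuclei with one were deeper, their median being 3261 Female and 3399.5 Male UMIs against 1958.5 and 1915 in those without. After each nucleus was thinned to 1000 UMIs, 144 of 423 Female nuclei (34.0%) and 254 of 610 Male nuclei (41.6%) had one. Of 7856 genes, 14 (0.178%) were at least 2-fold higher and 96 (1.22%) at least 2-fold lower in the nuclei with a Lyve1 UMI in both libraries. The median log2 ratio of all genes was -0.04. With a pseudocount of 20 CPM in place of 5, the counts were 0 higher and 55 lower, and from each library alone 47 and 90 genes were higher. Thinned to 1000 UMIs, 3 genes were higher and 48 lower, and 0 of the 3 and 15 of the 48 were among those called at full depth.

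The 28 genes of the resident macrophage list that could be compared all had a log2 ratio above 0 with the libraries summed, with a median of 0.52, and 2 of them passed 2-fold. Those were Timd4, at 360 Female and 218 Male CPM in nuclei with a Lyve1 UMI and 169 and 102 CPM in those without, and Ccl24, at 137 and 75.3 CPM against 56.2 and 28.2 CPM. Trf, the transferrin gene, was at 160 and 164 CPM against 75 and 73.4 CPM. Tsc22d3, which encodes the glucocorticoid-induced leucine zipper, was at 198 and 238 CPM against 88.6 and 112 CPM, and Stat4 at 30.7 and 33.9 CPM against 8.52 and 9.89 CPM. None of these genes was called in the thinned nuclei.

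Lower in the nuclei with a Lyve1 UMI were Fn1, at 34.1 Female and 43.3 Male CPM against 498 and 713 CPM, and Ccr2, at 5.68 and 20.7 CPM against 148 and 229 CPM. Lyz1, a lysozyme gene, was at 2.27 and 3.14 CPM against 114 and 107 CPM, from only 17 Female and 19 Male nuclei in all. Cd226, which encodes the activating receptor DNAM-1, was at 10.2 and 7.53 CPM against 196 and 164 CPM, and Fgr, a Src family kinase gene, at 5.68 and 5.02 CPM against 90.3 and 117 CPM. Tnip3 had no UMI in nuclei with a Lyve1 UMI and was at 46.0 and 36.7 CPM in those without, at least 33.8-fold lower. Its UMIs came from 10 Female and 12 Male nuclei. Of the 96 genes lower at full depth, 15 were also called in the thinned nuclei. Of 10 MHC class II genes 0 were higher and 4 lower, with a median log2 ratio of -1.01, while of 10 recruited monocyte genes 0 were higher and 2 lower, with a median of -0.75. Those 4 were H2-Eb1, H2-DMa, H2-DMb1 and Ciita, the last encoding the activator of MHC class II genes, at 90.8 and 67.1 CPM against 225 and 222 CPM. Thinned to 1000 UMIs, H2-Aa was found in 16% of Female and 15% of Male nuclei with a Lyve1 UMI, against 26.5% and 22.8% of those without, and Timd4 in 27.8% and 19.7% against 16.5% and 14.3%. Cd74 was found in 27.1% and 26.4% against 41.2% and 28.7%, close together in the Male library. Folr2 was found in 20.1% and 22.4% against 21.5% and 15.4%, so its direction differed between the libraries.

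Several of these genes occurred in the same nuclei as Ccr2. This was looked at after the values above were seen, by taking the 35 Female and 67 Male Mrc1 F13a1 nuclei with a Ccr2 UMI. They were deeper, with a median of 3840 and 4279 UMIs against 2375.5 and 2655.5 in those without. Thinned to 1000 UMIs, Ccr2 was found in 1.39% of Female and 0.787% of Male nuclei with a Lyve1 UMI, against 6.45% and 7.87% of those without. Cd226 was found in 60.0% Female and 41.8% Male of the nuclei with a Ccr2 UMI, against 2.82% and 2.30% of those without and 0.130% and 0.273% of smooth muscle nuclei. Fn1 was found in 60.0% and 52.2% against 11.3% and 9.54%, where smooth muscle nuclei, which express Fn1 themselves, gave 40.7% and 40.5%. Its level was 1543 and 1517 CPM against 80.6 and 57.5 CPM. Cd74 was found in 80.0% and 83.6% against 48.1% and 41.4%.

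The deeper nuclei with a Ccr2 UMI carried less of the resident genes. Lyve1 was found in 8.57% Female and 23.9% Male of the nuclei with a Ccr2 UMI, against 54.9% and 63.5% of those without. Folr2 was found in 14.3% and 14.9% against 45.3% and 41.6%, and Timd4 in 8.57% and 7.46% against 41.5% and 33.9%. The selecting gene F13a1 was at 3746 and 5277 CPM against 7986 and 7831 CPM, and Mrc1 at 1263 and 1798 CPM against 2522 and 2477 CPM. Of all Mrc1 F13a1 nuclei, 7.59% Female and 9.93% Male carried a Ccr2 UMI, against 0.0944% and 0.124% of smooth muscle nuclei. In this minority Fn1, Cd226 and Cd74 were each found more often, though Cd74 was also common in the nuclei without a Ccr2 UMI. The presence of these genes all together was not counted.

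**Figure D4:**
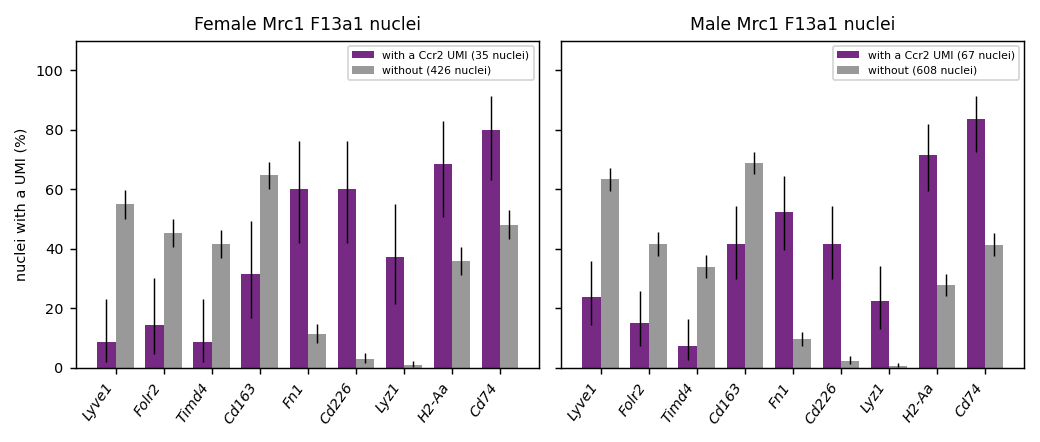
Share of Mrc1 F13a1 nuclei with a UMI of each gene (%), nuclei with a Ccr2 UMI in purple and those without in grey, Female on the left and Male on the right; bars start at 0 and lines are exact binomial 95% intervals. In the nuclei with a Ccr2 UMI the shares of Lyve1, Folr2, Timd4 and Cd163 were lower, and those of Fn1, Cd226, Lyz1, H2-Aa and Cd74 higher.

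Between the sexes, 71 of 7783 genes (0.912%) were at least 2-fold higher and 52 (0.668%) at least 2-fold lower in Female than in Male Mrc1 F13a1 nuclei, and the median log2 ratio was 0.00. With 1 pooled library per sex there is no test, and sex cannot be told apart from any other difference between the pools. With a pseudocount of 20 CPM the counts were 23 higher and 22 lower. After thinning 25 were higher and 39 lower, but only 7 and 15 of these were among those called at full depth. Without scrublet calls 113 were higher and 54 lower, of which 41 and 34 were among those called with them. The sex-linked genes followed the labels. Xist, the RNA that silences an X chromosome, was at 1220 CPM in Female and 0 CPM in Male nuclei, and Uty and Ddx3y, on the Y chromosome, at 0 and 0.681 CPM in Female against 170 and 87.7 CPM in Male nuclei.

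Several genes at the head of these counts came from single nuclei. In the Female library the airway genes Bpifa1, Scgb1a1 and Cyp2f2 had 123 of 123, 73 of 75 and 55 of 55 UMIs in 1 nucleus, which was the same nucleus for all 3. The cartilage genes Col11a1 and Acan had 60 of 68 and 53 of 55 UMIs in 1 other nucleus. In the Male library the antibody genes Igkc and Igha had 145 of 151 and 93 of 96 UMIs in 1 nucleus. When genes with UMIs in fewer than 10 nuclei were left out, 59 genes were higher and 49 lower.

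Fkbp5, a glucocorticoid-induced gene for a cochaperone of the glucocorticoid receptor, was at 258 CPM in Female and 828 CPM in Male Mrc1 F13a1 nuclei, a ratio of 0.311 (0.278 to 0.348). The same direction was found in Lyz2 Mmp12 Cybb nuclei, at 102 and 365 CPM, and in all other nuclei, at 73.7 and 287 CPM. Zbtb16, another such gene, was at 178 CPM in Female and 415 CPM in Male nuclei, and at 367 and 1116 CPM in all other nuclei. Of 10 glucocorticoid response genes 0 were higher and 3 lower, the third being Ddit4 at 0.681 CPM in Female and 23.0 CPM in Male nuclei, and the list had a median log2 ratio of -0.60, against -0.76 in all other nuclei. For Fkbp5 the direction was thus the same in all 3 sets of nuclei.

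Other genes lower in Female nuclei were St3gal5, which encodes a ganglioside-forming sialyltransferase, at 78.4 CPM in Female and 220 CPM in Male nuclei, and Slc16a14, at 35.4 and 121 CPM. Vsig4, which encodes a complement receptor of resident macrophages, was at 13.6 and 50.4 CPM, and Ccl8 at 17.0 and 52.5 CPM. Hmox1 was at 23.2 CPM in Female and 57.3 CPM in Male nuclei. Each of these 5 genes was lower in Female than in Male nuclei by more than 2-fold.

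MHC class II genes lay the other way in these nuclei than in all other nuclei. Of 10 genes 9 had a log2 ratio of Female over Male nuclei above 0, with a median of 0.33. The gene past 2-fold was H2-DMa, whose product helps load peptides, at 33.4 CPM in Female and 13 CPM in Male nuclei. By contrast, all 10 were below 0 in all other nuclei, with a median of -0.28. Cd74 was at 688 CPM in Female and 544 CPM in Male Mrc1 F13a1 nuclei, a ratio of 1.26 (1.16 to 1.37), and at 31.7 and 41.8 CPM in all other nuclei. H2-Aa was at 382 and 295 CPM, and at 15.9 and 20.5 CPM in all other nuclei. The difference between both directions was not tested. All 12 interferon response genes were below 0, with a median of -0.28, as they were in all other nuclei, with a median of -0.23. The 29 resident macrophage genes had a median of 0.04, with 0 higher and 2 lower.

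**Figure D5:**
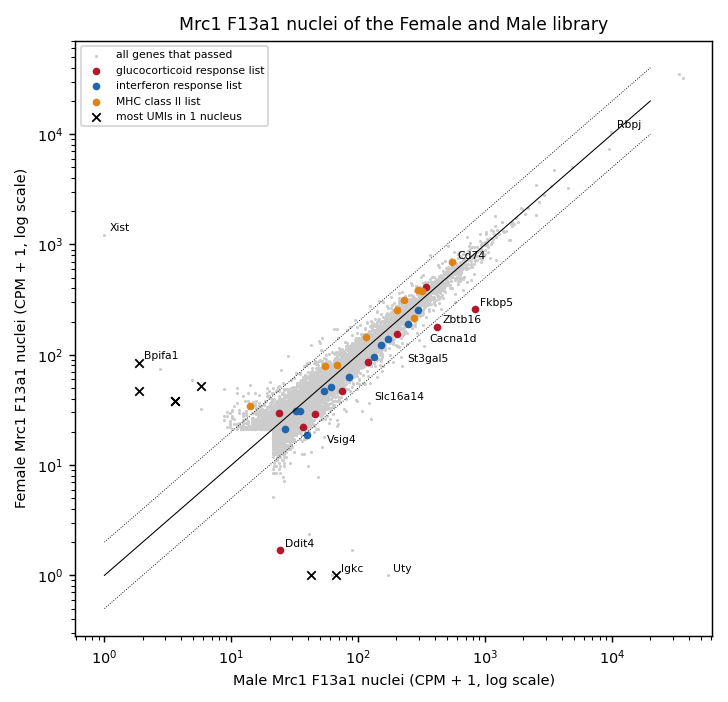
CPM + 1 of each gene compared in Male (x axis) and Female (y axis) Mrc1 F13a1 nuclei, both axes log, with the solid line at equality and dotted lines at a 2-fold difference. Crosses mark Bpifa1, Scgb1a1, Cyp2f2, Col11a1, Acan, Igkc and Igha, which had most UMIs in 1 nucleus. Other such genes, among them Nlgn1, carry no cross. Fkbp5, Slc16a14 and St3gal5 lie below the lower dotted line, and the MHC class II genes lie at or above the line of equality except 1.

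The reporter was read in the same nuclei. A GFP UMI was found in 13.4% of Female (10.5% to 16.9%) and 13% of Male (10.6% to 15.8%) Mrc1 F13a1 nuclei, against 36.5% and 36.4% of smooth muscle nuclei. A tdTomato UMI was found in 32.3% (28.1% to 36.8%) and 31.9% (28.3% to 35.5%), where smooth muscle nuclei lay between 27.4% and 30.8% including their intervals. GFP was at 57.2 and 49.9 CPM in Mrc1 F13a1 nuclei and at 107 and 112 CPM in all other nuclei. GFP without tdTomato was found in 7.59% and 7.85% of Mrc1 F13a1 nuclei, and both reporters in 5.86% and 5.19%. In Lyz2 Mmp12 Cybb nuclei GFP without tdTomato was found in 9.43% Female and 7.26% Male, and both reporters in 5.66% and 9.68%. Their interval for any GFP UMI was 8.88% to 23.4% Female and 10.8% to 24.7% Male, overlapping that of the Mrc1 F13a1 nuclei. A GFP UMI of free RNA cannot be told apart from one of the nucleus, and the part of free RNA in these shares was not tested.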

How the data were processed

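Single-nucleus RNA was measured in 1 Female and 1 Male library, each pooled from several mice. The authors' deposited matrices hold raw counts of UMIs for each gene and barcode, without normalization as far as recorded. They were written by Cell Ranger 7.0.0, per the file headers. The submitters' processing notes also name STAR, Seurat 4.4.0 and GRCm38. The sources used here do not give the strand setting, the treatment of intronic reads or the annotation version, so counts of genes that overlap another gene are uncertain. Positions came from a GRCm38 annotation by Ensembl identifier, which placed 54723 of 54754 features.

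Nuclei with at least 300 genes were kept. UMIs were summed per library and set and scaled to the total of that set (CPM). A gene was compared with at least 50 UMIs in the sets and 20 CPM in 1 of them, and was called when the log2 ratio of CPM + 5 was at least 1 in size and of the same sign in both libraries, or by size alone between the sexes. The 11 genes of the selection were left out. The members, the 39 gene lists (522 genes) and the comparisons were chosen with earlier results of these data known. Named genes were the 15 highest and 12 lowest against Lyz2 Mmp12 Cybb nuclei, the 15 highest against all other nuclei, the 12 highest and lowest between the sexes, the 8 highest and lowest in the Lyve1 comparison, and list genes with most UMIs or called. Of the genes this rule gives, those not printed are in the counts (some are not reported here), and overlap with another protein-coding gene touches Stab1 (Nt5dc2), Selenop (Ccdc152), Prg4 (Tpr), Csf1r (Hmgxb3), Cacna1d (Chdh and Dcp1a), Bmp6 (Txndc5), Cxcl16 (Zmynd15) and Cx3cr1 (several).

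Doublets were called per library with scrublet in scanpy 1.11.5 at an expected rate of 0.08 and kept, and removed as an alternative. Nuclei were thinned to 1000 UMIs with a fixed seed where shares were compared at equal depth. Intervals of shares are exact Clopper-Pearson, that of the difference in shares Newcombe, those of levels exact Poisson and those of ratios conditional binomial, at 95%, and a floor is 3 UMIs. The calling step was tested on simulated data. The work used numpy 2.4.6, pandas 2.3.3, scipy 1.17.1 and matplotlib 3.10.9 under Python 3.11.15.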

Additional observations from a re-analysis of the deposited data

Results flagged for a closer look

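Of the genes compared between Mrc1 F13a1 and Lyz2 Mmp12 Cybb nuclei, 3 of those in the lists were at least 2-fold apart in opposite directions in the Female and Male libraries, and this difference between the libraries was not tested. Bmp6, which encodes a bone morphogenetic protein that controls iron balance, had a log2 ratio of 2.06 in the Female library, where it was at 300 CPM in Mrc1 F13a1 nuclei and 68.1 CPM in Lyz2 Mmp12 Cybb nuclei. In the Male library the ratio was -1.56, with 243 CPM in Mrc1 F13a1 nuclei and 724 CPM in Lyz2 Mmp12 Cybb nuclei, where 415 UMIs came from 22 nuclei. Summed endothelial markers were at 654 CPM in Mrc1 F13a1 nuclei and 387 CPM in Lyz2 Mmp12 Cybb nuclei of the Female library, and at 697 CPM and 1052 CPM in those of the Male library. The endothelial gene Emcn moved with Bmp6, with log2 ratios of 2.15 Female and -2.90 Male, as did Nrg1, with 1.95 and -1.35, and Adamtsl1, with 1.48 and -2.73; their part in the Bmp6 values was not tested. Fos, an immediate early gene, had a log2 ratio of 1.07 in Female and -1.16 in Male nuclei. It rested on few UMIs of the Lyz2 Mmp12 Cybb nuclei, 5 Female from 3 nuclei and 18 Male from 9 nuclei. Mx1, an interferon-induced gene, had a log2 ratio of -1.02 in Female and 1.23 in Male nuclei. In the Lyz2 Mmp12 Cybb nuclei it had 31 Female UMIs, 17 of them in 1 nucleus, and 6 Male UMIs from 5 nuclei.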

How the results depend on the processing

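The Female share of Mrc1 F13a1 nuclei was 2.75% without the smooth muscle and fibroblast conditions, and every other alternative of either share stayed within its counting interval. With a pseudocount of 20 CPM, 274 genes were lower against Lyz2 Mmp12 Cybb nuclei and 987 against all other nuclei, 23 were higher and 22 lower in Female nuclei, and 0 were higher and 55 lower in nuclei with a Lyve1 UMI. With a pseudocount of 1 CPM, 107 were higher and 83 lower in Female nuclei and 33 higher in nuclei with a Lyve1 UMI. With at least 200 UMIs and 50 CPM, 192 were lower against Lyz2 Mmp12 Cybb nuclei, 15 higher and 19 lower in Female nuclei, and 7 higher and 30 lower in nuclei with a Lyve1 UMI; these fewer genes follow from the stricter filter. Thinned to 1000 UMIs, 219 were lower against Lyz2 Mmp12 Cybb nuclei, 25 higher in Female nuclei, and 3 higher and 48 lower in nuclei with a Lyve1 UMI. Without scrublet calls, 113 were higher in Female nuclei, and 33 higher and 161 lower in nuclei with a Lyve1 UMI. From 1 library alone, 462 to 507 were higher and 503 to 644 lower against Lyz2 Mmp12 Cybb nuclei, and 47 to 90 higher in nuclei with a Lyve1 UMI, since a call then no longer needs both. Other causes were not tested. Gprc5b in the Lyve1 comparison turned to a log2 ratio of -0.081 when thinned. Of the other values of named genes over all alternatives, 765 kept their side of a 2-fold difference and 18 did not, all with the same sign. Keeping genes with UMIs in at least 10 nuclei, chosen after seeing the data, left 281 higher and 330 lower against Lyz2 Mmp12 Cybb nuclei and 14 higher and 83 lower in nuclei with a Lyve1 UMI.

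No paired analysis was possible because there is 1 library per sex and the barcodes do not show the technical division. Nuclei of low depth limit the low genes most, and with 106 and 124 nuclei the Lyz2 Mmp12 Cybb set limits every ratio against it.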
